A study of Bos taurus with 6 samples.

Results

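The transcription factors of the trophectoderm, the outer epithelium of the blastocyst, were followed here as a set of 8 genes: CDX2, ELF5, TFAP2A, TFAP2C, GATA2, GATA3, TEAD4 and EOMES. They were picked by symbol out of the 36075 genes of the table, and each symbol occurred once. The libraries came from bovine blastocysts produced in vitro from slaughterhouse oocytes. In the MT-treated group the cumulus–oocyte complexes had been matured for 22 h in medium with melatonin (MT) at 1e-07 mol/L, and in the control group without MT, so that exposure ended before fertilization. Each group had 3 libraries, each made from a pool of 3 blastocysts, and the study's methods state that the 3 pools of a group came from separate production runs. Expression was given as TPM, in which reads are scaled for gene length and library total, so levels of different genes can be set side by side within a library.

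The trophectoderm and the inner cell mass are the products of the earliest lineage split of the mammalian embryo. The trophectoderm later forms the fetal part of the placenta. In the mouse, TEAD4 with its cofactor YAP1 switches on CDX2 and GATA3 in the outer cells, CDX2 represses the pluripotency gene POU5F1, and ELF5, EOMES and TFAP2C keep trophoblast stem cells in their state. GATA2, GATA3, TFAP2A and TFAP2C are known as a shared circuit of trophoblast cells in several mammals. In cattle, CDX2 marks the trophectoderm as well, while POU5F1 is still present in the trophectoderm of the early blastocyst.

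The libraries of the 2 groups stood apart as wholes. Between 8854 and 8953 genes were above 0 TPM in the controls and between 14372 and 14408 in the MT group. Of the 11953 genes tested, 33.8% were listed at 0 in every control library and 3.01% at 0 in every MT-treated library. The labels and the study's methods give no preparation batch, so a difference in how the libraries of the groups were prepared or processed cannot be told apart from MT in any fold change given here. A gene at 0 in a group is described as listed at 0, with no fold change. None of 46 genes that every cell uses was at 0 throughout either group. That list was chosen with earlier results known and does not speak for genes outside it. Of 46 products of the trophectoderm in the table, 33 were tested and 13 were at 0 in all 6 libraries, with the epithelial keratin KRT8, the most abundant on average in control, at 8695 ± 145 TPM in control and 6905 ± 133 TPM in MT-treated blastocysts (mean ± SD of 3 libraries). In pools of whole blastocysts, fewer cells of a type and less RNA per cell cannot be told apart.

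The caudal homeobox factor CDX2 (ENSBTAG00000001819) was listed at 0 in all 3 control libraries and had 17.2, 15.0 and 16.1 TPM in the MT group. The ETS factor ELF5 (ENSBTAG00000012460) was likewise listed at 0 in all 3 control libraries, and had 12.8, 13.2 and 12 TPM in the MT group. Both genes were thus above 0 in the MT group alone, and the depth behind the values of 0 was not available here. They reached 1 TPM, the level required for testing, only through the MT group, so that a difference was bound to be called and no p-value is given. Such a pattern was common at this level: of 2593 tested genes with an MT-treated mean between 10 and 20 TPM, 1178 (45.4%) were listed at 0 in every control library. EOMES (ENSBTAG00000016920), a T-box factor, was listed at 0 in all 6 libraries and was not tested.

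**Figure D1:**
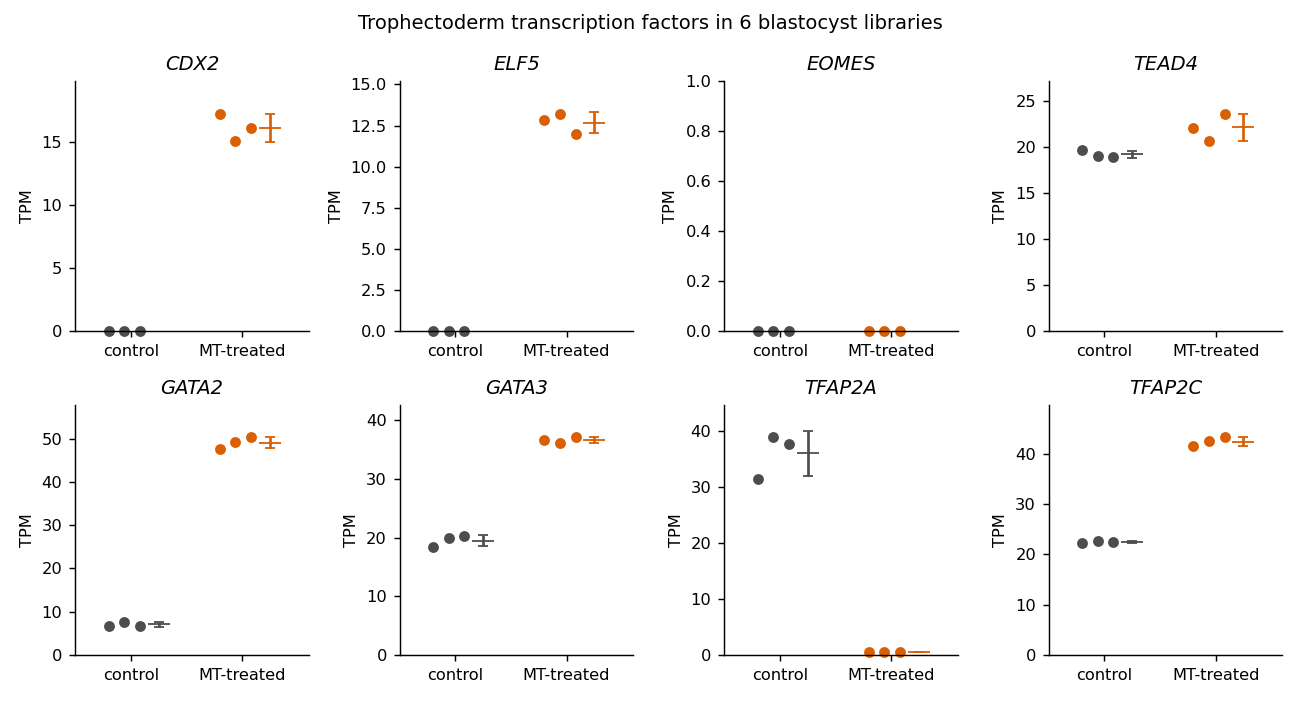
TPM of the 8 trophectoderm transcription factors, 1 panel per gene with its own axis from 0. Dots are the 3 libraries of each group, and the bar beside them is the mean with its SD, left out where a group is listed at 0 throughout. CDX2 and ELF5 have points above 0 only on the MT-treated side, TFAP2A falls to about 0.5 TPM there, GATA2, GATA3 and TFAP2C are higher there, the TEAD4 groups nearly touch, and EOMES stays at 0.

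The GATA factors bind the same DNA motif through their zinc fingers, and both were higher in MT-treated blastocysts. GATA2 (ENSBTAG00000019707) had 6.75, 7.65 and 6.80 TPM in the controls against 47.8, 49.2 and 50.4 TPM in the MT group. The lowest MT-treated value thus lay far above the highest control value, and the mean rose 6.95-fold, from 7.07 ± 0.506 to 49.1 ± 1.29 TPM (mean ± SD, 3 libraries each), a difference of 2.64 on the log2(TPM + 1) scale (standard error 0.05, 95% interval 2.51 to 2.77, adjusted p = 2.13e-08, limma with Benjamini-Hochberg adjustment over all tested genes). GATA3 (ENSBTAG00000017243) had 18.4, 19.9 and 20.3 TPM in the controls against 36.7, 36.2 and 37.1 TPM in the MT group. It rose 1.88-fold, a log2 difference of 0.88 (standard error 0.04, 95% interval 0.78 to 0.98, adjusted p = 1.64e-06 by limma).

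The AP-2 factors TFAP2A and TFAP2C, which bind DNA as dimers with each other or with themselves, moved in opposite directions. TFAP2A (ENSBTAG00000001250) had 31.5, 38.9 and 37.8 TPM in the controls against 0.46, 0.46 and 0.55 TPM in the MT group. It was the only one of the 8 genes that was lower with MT, from the highest level of the set in control to a mean 73.6 times lower, and its log2 difference was -4.63 (standard error 0.09). TFAP2A reached the level required for testing only through the controls, and again no p-value is given. The 3 control values of TFAP2A also spread most, with a coefficient of variation of 11.1%. TFAP2C (ENSBTAG00000002065) had 22.2, 22.6 and 22.4 TPM in the controls against 41.5, 42.4 and 43.2 TPM in the MT group. It rose 1.89-fold, a log2 difference of 0.89 (standard error 0.03, 95% interval 0.83 to 0.95, adjusted p = 1.33e-07 by limma).

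TEAD4 (ENSBTAG00000019788), the DNA-binding partner of YAP1, had 19.7, 19.0 and 18.9 TPM in the controls against 22.1, 20.7 and 23.6 TPM in the MT group. The groups did not overlap, but the lowest MT-treated value was only slightly above the highest control value. The log2 difference was 0.19 (standard error 0.05, 95% interval 0.06 to 0.32, adjusted p = 0.0113 by limma). With quantile normalization, a method that forces all libraries onto 1 distribution, it was 0.04 (95% interval -0.19 to 0.26, adjusted p = 0.718 by limma) and was no longer called. The groups differed in the number of genes above 0, which quantile normalization takes no account of, and the part of that in its results was not tested. TEAD4 was the only member for which the scaling decided the call. The median over genes that reached 1 TPM in each of the 6 libraries was 0.48 lower in MT-treated than in control libraries on the log2 scale, and the 46 genes used by every cell a median 0.20 lower. Relative to these, TEAD4 differed by 0.67 and 0.39 (adjusted p = 1.78e-05 and 4.50e-04 by limma). The directions of GATA2, GATA3 and TFAP2C were the same under all 4 scalings, with GATA2 between 2.25 and 3.12, TFAP2C between 0.89 and 1.37 and GATA3 between 0.88 and 1.36. TFAP2A lay between -4.82 and -4.15, but it reached 1 TPM only through the controls, so its direction was fixed by the filter.

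**Figure D2:**
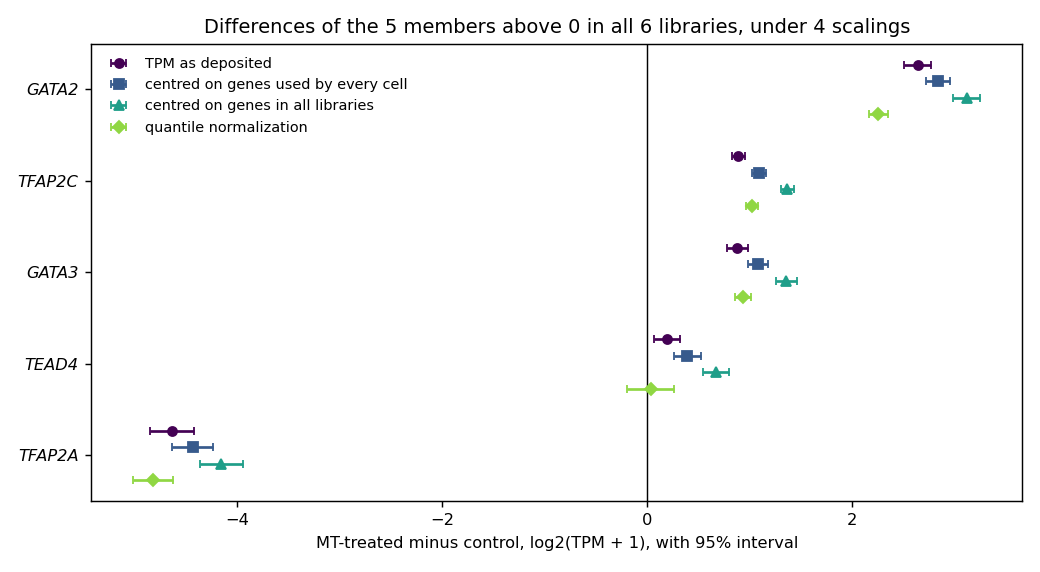
Difference between MT-treated and control blastocysts on the log2(TPM + 1) scale, with its 95% interval from limma, for the 5 members above 0 in all 6 libraries. Symbols mark TPM as deposited, each library centred on genes used by every cell, each library centred on genes that reached 1 TPM in each of them, and quantile normalization. For TEAD4 the interval includes 0 under quantile normalization, and for GATA2, GATA3 and TFAP2C no interval does. TFAP2A, which reached 1 TPM in control only, is shown for its size.

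In total, 6 of the 7 members tested were higher and 1 was lower, against 61.6% of all tested genes higher and 34.1% lower. The groups did not overlap for any of the 7, as for 96.1% of all tested genes. The calls of CDX2, ELF5 and TFAP2A, which reached 1 TPM in 1 group only, add nothing to these counts. Such genes made up 5743 of the 11953 tested (48.0%), and leave TFAP2C, GATA2, GATA3 and TEAD4 as the members that could have gone either way. The log2 differences of TFAP2C and GATA3 lay at the 48.1st and 48.0th percentile of all tested genes, that of TEAD4 at the 39.5th, that of GATA2 at the 67.5th and that of TFAP2A at the 2.52nd. The median over the 7 was 0.89, beside 1.12 over all tested genes. Among genes above 0 in all 6 libraries it was 0.88 over 5 members and -0.19 over 6925 genes.

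The order of the levels changed between the groups. In control blastocysts TFAP2A was highest, followed by TFAP2C, then GATA3 and TEAD4, whose values overlapped, and then GATA2. In MT-treated blastocysts the order was GATA2, TFAP2C, GATA3, TEAD4, CDX2, ELF5 and TFAP2A, and no neighbours in this order overlapped. Ranked among the genes above 0 in its own library, a scale that a factor applied to the whole library does not move, GATA2 went from the 35.6th to 37.5th percentile in control to the 83.5th to 84.3rd in the MT group. TFAP2C went from the 50.9th to 51.7th to the 81.3rd to 82.0th, and TFAP2A from the 58.1st to 63.2nd down to the 16.3rd to 17.3rd. TEAD4 lay at the 48.1st to 49.2nd percentile in control and at the 66.8th to 70.3rd in the MT group. These ranks run over different numbers of genes in the 2 groups, and the part of that in them was not tested.

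Ratios of TPM + 1 within a library were taken for pairs in which both genes reached 1 TPM in each group. The planned pairs TFAP2A to TFAP2C and CDX2 to POU5F1 did not meet this and were left out. The log2 ratio of GATA2 to GATA3 was -1.32, -1.27 and -1.45 in the controls against 0.37, 0.43 and 0.43 in the MT group, so GATA3 was the higher of the pair in every control library and GATA2 in every MT-treated library (exact permutation test, two-sided, p = 0.1, the smallest that 3 against 3 libraries allow). The log2 ratio of TFAP2C to GATA3 was 0.26, 0.17 and 0.14 in control and 0.17, 0.22 and 0.21 in the MT group. These values overlapped and their means differed by 0.01 (exact permutation test, two-sided, p = 0.8). The log2 ratio of GATA3 to POU5F1 was higher in each MT-treated library, with means of -3.22 ± 0.07 in control and -2.36 ± 0.01 with MT (mean ± SD, 3 libraries each, exact permutation test, two-sided, p = 0.1). POU5F1 itself had 189.8, 188.3 and 191.3 TPM in control and 193.3, 190.6 and 194.1 TPM in the MT group, which overlapped (log2 difference 0.02, adjusted p = 0.223 by limma). Under the other scalings POU5F1 was called higher, by 0.24 with quantile normalization, 0.50 after centring on genes in all libraries and 0.22 after centring on genes used by every cell (highest adjusted p = 3.18e-05 by limma). With adjustment over the 3 ratios none could pass 0.05.

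Paralogues of the 8 genes, which share their DNA-binding domains, were listed as 25 genes, of which 12 were tested, 7 were higher (58.3%) and 5 lower (41.7%), beside 61.6% and 34.1% of all tested genes, and 7 of the 12 reached 1 TPM in 1 group only. Their median log2 difference was 1.77 over the 12 and -1.30 over the 7 above 0 in all 6 libraries. Some of them differed as widely as TFAP2A. TEAD1 fell from 80.5 ± 0.993 to 2.92 ± 0.117 TPM (mean ± SD, 3 libraries each), a log2 difference of -4.38 (adjusted p = 6.38e-10 by limma), while TEAD3 rose from 0.567 ± 0.0513 to 24.3 ± 0.826 TPM (mean ± SD, 3 libraries each). GATA5 had 44.2, 46.8 and 37.2 TPM in the controls and was listed at 0 in every MT-treated library. GATA1, best known from red blood cell formation, was listed at 0 in every control library but had 37.1, 38.5 and 25.8 TPM in the MT group. GATA6, a hypoblast factor, had 0.34, 0.44 and 0.20 TPM in control and 30.8, 32.1 and 33.1 TPM in the MT group. ELF2 had 0, 0.01 and 0 TPM in control and 72.2, 70.6 and 69.0 TPM in the MT group, and ELF3, an epithelial ETS factor, fell from 57.7 ± 2.80 to 11.3 ± 0.753 TPM (mean ± SD, 3 libraries each).

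Summed by family, a view chosen after the values were seen, the genes that carried a family differed between the groups. The sum over TEAD1 to TEAD4 was 116, 114.3 and 114.4 TPM in control and 53.4, 52.6 and 56.8 TPM in the MT group. TEAD1 made up 70.0% of it in control and 5.4% in MT-treated blastocysts, TEAD3 0.493% and 44.9%, and TEAD4 16.7% and 40.8%. The sum over the GATA genes was 69.6, 74.8 and 64.4 TPM in control and 152, 156 and 146 TPM in the MT group, led by GATA5 with 61.2% in control and by GATA2 with 32.4% in MT-treated blastocysts. TFAP2B, TFAP2D and TFAP2E were listed at 0 in all libraries. TFAP2A held 61.6% of the AP-2 sum in control and 1.14% in MT-treated blastocysts, and TFAP2C the remainder. The AP-2 sum itself was 53.8, 61.5 and 60.2 TPM in control and 41.9, 42.9 and 43.8 TPM in the MT group, lower in every MT-treated library. On the log2 scale the AP-2 sum differed by -0.45, which became 0.03 after centring on genes in all libraries, while the GATA, TEAD and ELF sums kept their direction at 1.6, -0.61 and 1.21. After centring on genes used by every cell the AP-2 sum differed by -0.25, and the GATA, TEAD and ELF sums by 1.33, -0.88 and 0.93. The ELF sum was 64.1 ± 2.51 TPM in control and 106 ± 2.19 TPM in MT-treated blastocysts (mean ± SD, 3 libraries each). For each of these 4 families the sums of the groups did not overlap (exact permutation test, two-sided, p = 0.1).

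**Figure D3:**
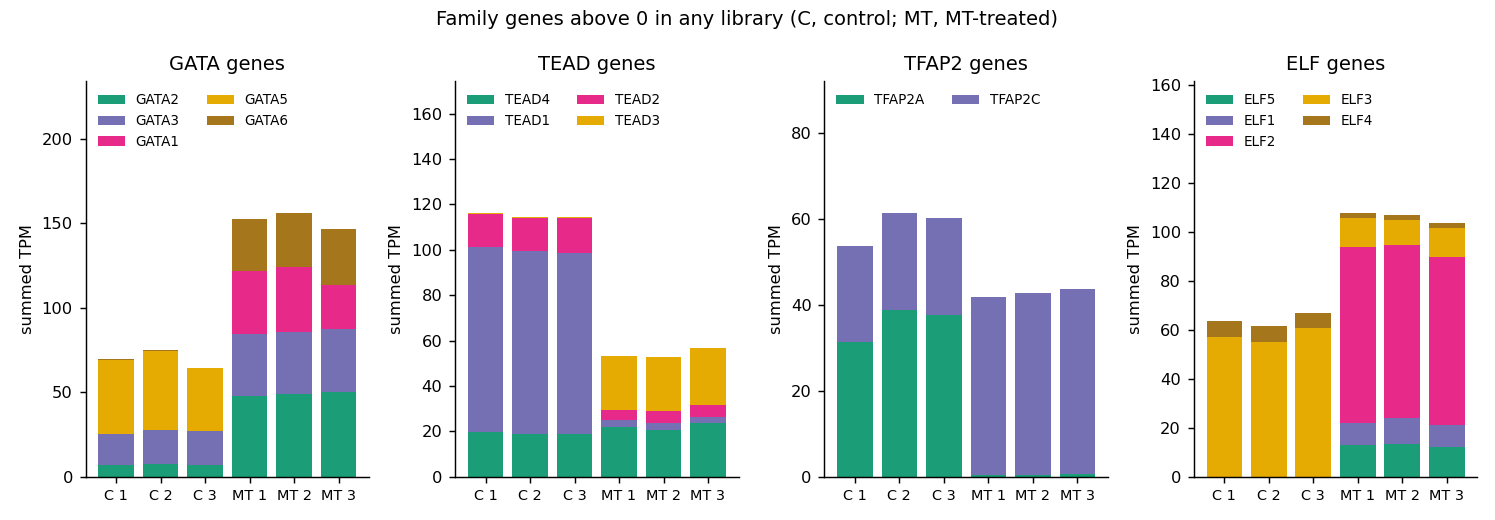
Summed TPM of the GATA, TEAD, TFAP2 and ELF genes above 0 in any library, 1 bar per library (C, control; MT, MT-treated), each color 1 gene. Control bars are led by GATA5, TEAD1, TFAP2A and ELF3, and MT-treated bars by GATA2, TEAD3, TFAP2C and ELF2. The TEAD and TFAP2 sums are lower and the GATA and ELF sums higher in the MT group.

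Proteins that work with these factors were examined as well. TEAD factors need cofactors to activate transcription, and of 6 listed, 4 were tested, with 3 higher and 1 lower, beside 61.6% and 34.1% of all tested genes. Of the 4 cofactors tested, 1 reached 1 TPM in 1 group only. With quantile normalization 2 were higher and 2 lower, beside 6614 higher and 4604 lower of all 11953 genes tested. YAP1 had 1.2, 1.37 and 1.37 TPM in control and 8.62, 9.45 and 8.28 TPM in the MT group, a log2 difference of 2.08 (adjusted p = 1.22e-07 by limma) that turned to -0.76 with quantile normalization. WWTR1, the close relative of YAP1, rose from 27.5 ± 0.990 to 38.3 ± 4.52 TPM (mean ± SD, 3 libraries each, adjusted p = 0.00259 by limma). VGLL4, which competes with YAP1 for TEAD, was listed at 0 in every control library but had 4.03, 3.70 and 3.37 TPM in the MT group. VGLL1 fell from 101 ± 5.0 to 72.9 ± 1.31 TPM (mean ± SD, 3 libraries each, log2 difference -0.46, adjusted p = 3.77e-05 by limma), and its difference was 0.02 after centring on genes in all libraries. Of 11 partners and repressors of GATA and AP-2 factors, 8 were tested, with 4 higher, 3 lower and 1 not called, beside the same 61.6% and 34.1%. The 4 higher ones were all listed at 0 in every control library. They were ZFPM1 and ZFPM2, which bind the zinc fingers of GATA factors, and KCTD1 and KCTD15, which repress AP-2 factors. These 4 reached 1 TPM only through the MT group, so their calls were bound to be made. Of the other 4 tested, 3 were lower and 1 was not called. ZFPM2 had 40.5, 36.5 and 37.3 TPM and KCTD1 22.6, 23.0 and 23.7 TPM in the MT group. LDB1, an adaptor of GATA complexes, fell from 29.6 ± 2.28 to 16.9 ± 0.765 TPM and LMO4 from 54.5 ± 2.34 to 43.5 ± 0.651 TPM (mean ± SD, 3 libraries each). After centring on genes in all libraries, 7 of the 8 were higher and 1 was lower, against 4 and 1 with quantile normalization and 5 and 2 after centring on genes used by every cell. The difference of LMO4 was 0.16, -0.0036 and -0.12 under these. Of all 11953 genes tested, 8412 were higher and 3038 lower (70.4% and 25.4%) after centring on genes in all libraries, and 7787 higher and 3627 lower after centring on genes used by every cell.

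A list of 40 other regulators of the trophoblast, nearly all transcription factors, had 27 tested members, of which 17 were higher (63.0%), 8 lower (29.6%) and 2 not called, close to the shares of all tested genes, and 12 of the 27 reached 1 TPM in 1 group only. SALL4 and ESRRB on this list are also on that of the inner cell mass. The median log2 difference was 0.30 over the 27 and 0.10 over the 17 above 0 in all 6 libraries. Large differences in both directions occurred here too. GCM1, a factor of syncytial trophoblast, had 36.2, 36.0 and 37.0 TPM in control but was listed at 0 in every MT-treated library. GRHL3 fell from 40.6 ± 0.217 to 3.00 ± 0.0945 TPM (mean ± SD, 3 libraries each, log2 difference -3.38, adjusted p = 1.03e-09 by limma). TFEB, needed for placental vascularization in the mouse, rose from 0.347 ± 0.0586 to 97.0 ± 12.9 TPM (mean ± SD, 3 libraries each). SMARCA4, a chromatin remodeler, was listed at 0 in every control library but had 34.2, 35.2 and 34.6 TPM in the MT group.

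**Figure D4:**
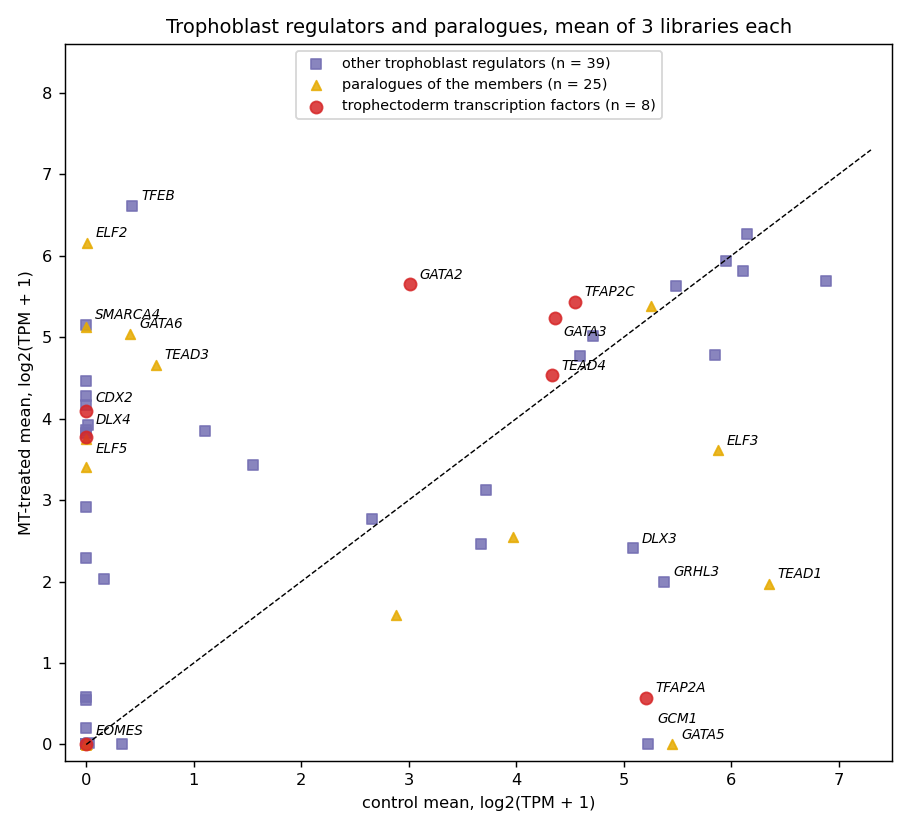
Mean TPM of 3 control libraries (x axis) against 3 MT-treated libraries (y axis), both as log2(mean + 1), for the 8 trophectoderm transcription factors, 25 paralogues and 39 other trophoblast regulators in the table. The dashed line marks equal levels. Points on the left edge, CDX2 and ELF5 among them, are at 0 or nearly so in control, GCM1 and GATA5 lie on the lower edge, and TFAP2A lies just above it.

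The products of the trophectoderm, among them epithelial proteins, transporters and secreted proteins, were called in both directions. Of 47 listed, 33 were tested, 6 of which reached 1 TPM in 1 group only and were bound to be called. Of the 33, 15 were higher, 16 lower and 2 not called, beside 61.6% higher and 34.1% lower over all tested genes. Among genes above 0 in all 6 libraries their median log2 difference was -0.13 over 29 products, near that of -0.19 over all such genes. After centring on genes in all libraries, which removes the shift of 0.48 given above, 19 were higher and 9 lower, against 18 and 14 after centring on genes used by every cell and 16 and 15 with quantile normalization. The first of these scalings gave 70.4% higher and 25.4% lower over all tested genes. Among the most abundant, KRT18 rose from 2766 ± 35.2 to 3654 ± 59.2 TPM (mean ± SD, 3 libraries each) and KRT8 was lower in every MT-treated library (log2 difference -0.33, adjusted p = 3.47e-06 by limma). It differed by -0.21 with quantile normalization and -0.13 after centring on genes used by every cell, both called lower, and by 0.15 after centring on genes in all libraries, called higher. KRT7 had 0.03, 0.06 and 0 TPM in control and 21.3, 19.9 and 22 TPM in the MT group. CLDN7, a tight junction protein, rose from 0.710 ± 0.313 to 21.8 ± 1.33 TPM (mean ± SD, 3 libraries each). OCLN, another, fell from 116 ± 1.06 to 14.3 ± 0.369 TPM (mean ± SD, 3 libraries each), and TKDP1, a secreted protein of the ruminant trophoblast, had 16.6, 17.3 and 16.6 TPM in control but was listed at 0 in every MT-treated library.

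Markers of the other cells in or around a blastocyst were called in both directions, and their part in the results was not tested. The share over all tested genes to set beside each of their counts is 61.6% higher and 34.1% lower, and 70.4% and 25.4% after centring on genes in all libraries. Of 24 inner cell mass markers, 17 were tested, 6 were higher and 8 lower, and 6 of the 17 reached 1 TPM in 1 group only. The calls of such genes were bound to be made. The summed level of the inner cell mass markers was 950 to 962 TPM in control and 719.5 to 744 TPM in the MT group. After centring on genes in all libraries 10 were higher and 6 lower, after centring on genes used by every cell 9 and 8, and with quantile normalization 7 and 9. NANOG was listed at 0 in every control library but had 8.93, 8.23 and 8.88 TPM in the MT group, and SOX2 had 0, 0.02 and 0 TPM against 5.88, 6.80 and 6.95 TPM. LIN28A was listed at 0 in every control library but had 14.9, 15.2 and 15.1 TPM in the MT group, and GDF3 fell from 68.8 ± 2.15 to 8.58 ± 0.320 TPM (mean ± SD, 3 libraries each). Of 20 hypoblast markers, 15 were tested, 10 were higher and 3 lower, and 6 of the 15 reached 1 TPM in 1 group only. The sum of the hypoblast markers was 1715 to 1728 TPM in control and 1371 to 1377 TPM in the MT group. LAMC1 alone set that direction, as the sum without it was 1085 to 1090 TPM in control and 1364 to 1371 TPM in the MT group. Under the same 3 scalings 13, 11 and 10 were higher and 2, 2 and 4 lower. PDGFRA, a hypoblast receptor, was listed at 0 in every control library but had 22.5, 22.9 and 24.2 TPM in the MT group, while LAMC1 fell from 634 ± 9.23 to 6.01 ± 0.287 TPM (mean ± SD, 3 libraries each).

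Of 19 cumulus and granulosa cell markers, 4 were tested, 2 were higher and 2 lower, against the same shares of 61.6% and 34.1% over all tested genes, and 8 of the 18 in the table were at 0 in all 6 libraries. Of the 4 tested, 1 reached 1 TPM in 1 group only. The sum was 278 to 286 TPM in control and 305 to 312 TPM in the MT group, mostly from HSD3B1 and from PTGS2, which the trophectoderm also expresses. Without PTGS2 the sum was 149.9 to 157 TPM in control and 133 to 135 TPM in the MT group. After centring on genes in all libraries all 4 were higher, beside 70.4% of all tested genes, but after centring on genes used by every cell 2 were higher and 1 lower, and with quantile normalization 2 and 2. Of 22 maternal oocyte transcripts, 5 were tested, 3 were higher and 2 lower, and 2 of the 5 reached 1 TPM in 1 group only. Of the 20 such transcripts in the table, 12 were at 0 in all 6 libraries. The sum over the 20 was 176 to 205 TPM in control and 275 to 283 TPM in the MT group. The higher sum lay in CCNB1, a mitotic cyclin that dividing cells also express, at 67.7 TPM in control and 223 TPM in the MT group on average, and without it the sum was 109.7 to 137 TPM in control and 55.9 to 59.3 TPM in the MT group. Of the 46 genes used by every cell, 17 were higher, 26 lower and 3 not called. After centring on genes in all libraries 30 were higher and 14 lower, after centring on these genes themselves 21 and 18, and with quantile normalization 20 and 22. Among them were POLR2E, a subunit of RNA polymerase II, at 49.5 to 50.3 TPM in control and 194 to 199 TPM with MT, and TBP, which binds the TATA box, at 49.5 to 50.9 TPM in control and 11.9 to 13.8 TPM with MT.

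For each tested member, the listed genes with the most similar profile were sought among 165 other tested genes of these lists, by the root mean square difference of log2(TPM + 1) over the 6 libraries. CDX2 was nearest to BTG4 (0.07) and LIN28A (0.09), and ELF5 to DLX4 (0.05) and CD44 (0.08), all listed at 0 in every control library. TFAP2A was nearest to GCM1 (0.42) and GATA5 (0.46). GATA3 was nearest to DSC2 (0.13), a desmosomal cadherin, and COL4A1 (0.21), and GATA2 to the same genes but at a distance of 0.90 and 1.02. TFAP2C was nearest to TJP1 (0.21), a tight junction protein, and WWTR1 (0.24), and TEAD4 to POLR2J (0.24) and CITED1 (0.25). With 2 groups, this distance compares little more than the levels in each.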

How the data were processed

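The authors checked the quality of reads with fastp and FastQC 0.11.9, aligned them with STAR 2.7.9a and counted them with featureCounts of Subread 1.6.3 (roles from the paper, versions from the submitters' processing notes). The labels name ARS-UCD1.2 as the genome and the paper ARS-UCD1.3, and the labels name a TruSeq kit where the paper names Smart-seq2, so both are uncertain. The authors deposited TPM per gene, rounded to 2 decimals, by a step not given in the sources used here. TPM holds no counts, so counting error is unknown. The paper places the sequencing depth and mapping rate of each replicate in its supplement, which was not used here. The count test used by the study, DESeq2, was therefore not applied. Whether counting used strand is not given in the sources used here, so antisense reads cannot be told apart from those of a gene.

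All 6 libraries, 3 per group by their labels, entered 1 fit. Values were transformed to log2(TPM + 1), which understates changes of low genes. Genes reaching 1 TPM in 3 or more libraries entered limma 3.58.1 (eBayes with trend) in R 4.3.3, with Benjamini-Hochberg adjustment over all of them and a threshold of 0.05. Single values per library were compared by exact permutation tests with scipy 1.17.1. P-values measure the spread between these libraries. For the 5 members above 0 in all 6 libraries, the coefficient of variation in control ran from 0.698% (TFAP2C) to 11.1% (TFAP2A). Whether the libraries of a group are as independent as the study's methods state was not tested, so small p-values call for caution. Members and gene lists were chosen with earlier results of these data known, and the lists were written from general knowledge. Named genes were every member, up to 2 called rises and 2 called falls from each list without overlap between groups, POU5F1, NANOG and SOX2, and the 2 nearest profiles per member. TEAD3, ELF3, WWTR1, KRT8, KRT18, ZFPM1, KCTD15, CCNB1, SALL4 and ESRRB were named after their values were seen. The alternatives were quantile normalization, 2 kinds of centring, a minimum TPM of 5 or none, a pseudocount of 0.1, eBayes without the trend, a replicate block and each library left out. Centring on genes used by every cell, sums without 1 gene and family sums after centring were added after the data were seen. How well the method performs where most tested genes differ between the groups, as they do here, was not tested.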

Additional observations from a re-analysis of the deposited data

How the results depend on the processing

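For TFAP2C, GATA2, GATA3 and TEAD4, which reached 1 TPM in both groups, 55 of 56 values under 14 alternatives kept their direction and their side of the threshold. The other was TEAD4 with quantile normalization, given above. Leaving out each library in turn kept these 4 called, with TEAD4 between 0.15 and 0.24 on the log2 scale and a highest adjusted p of 0.0384 by limma. The number of members higher was 5 with quantile normalization and 6 otherwise. The number of all tested genes higher lay between 5750 with a minimum TPM of 5 and 8871 without a filter. Without control replicate 3, the difference in the log2 ratio of TFAP2C to GATA3 turned from 0.01 to -0.0142, and over the libraries left out in turn it reached at most 0.0468. With a pseudocount of 0.1 the difference of TFAP2A was -5.94 in place of -4.63. Oocytes of a production run were allocated to all treatments in the embryo development experiments, so the groups may share runs, but the sources do not tie replicate numbers to runs. Deviations of same-numbered libraries from their group means correlated over 5988 genes at 0.094, -0.00074 and 0.15 for replicates 1, 2 and 3, not above 0.1 in every pair, and the libraries were treated as unpaired. With the replicate block, 7379 genes were higher and 4082 lower, in place of 7367 and 4071, and TEAD4 had an adjusted p of 0.0203 by limma. Without counts, and with the study's sequencing depth not used here, no limit was set for the genes listed at 0.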

Other observations

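The protein-coding genes that flank the 8 members were taken from the order of genes in RefSeq on ARS-UCD2.0, a view chosen after the data were seen. Of 16 flanking genes, 13 were found in the table, none overlaps its member, and 6 of the 13 were at 0 in all 6 libraries. Of the 6 tested, 1 was higher, 4 were lower and 1 was not called, beside 61.6% higher and 34.1% lower over all tested genes. The count moved with the scaling: CMC1, next to EOMES, was called lower (-0.40 on the log2 scale) but not with quantile normalization (-0.09) or after centring on genes in all libraries (0.08), while URAD, not called here, was called under both (-1.27 and 0.51). CAT, which encodes catalase and lies next to ELF5, had 0.04, 0.02 and 0 TPM in the controls against 37.6, 37.0 and 36.8 TPM in the MT group. EHF, the ETS gene on the other side of ELF5, was listed at 0 in all 6. GATA3 rose between a pair of genes that fell. TAF3, a subunit of the general factor TFIID, fell from 17.4 ± 0.163 to 1.71 ± 0.0777 TPM (mean ± SD, 3 libraries each, adjusted p = 3.26e-09 by limma). CELF2, an RNA-binding protein, had 32.4, 35.8 and 27.5 TPM in control and 1.59, 9.24 and 5.44 TPM in the MT group. RPN1, next to GATA2, fell from 241 ± 4.13 to 100.1 ± 1.54 TPM (mean ± SD, 3 libraries each). URAD, next to CDX2, had 12.5, 11.7 and 14.7 TPM in the controls against 14.2, 12.3 and 13.2 TPM in the MT group, which overlapped, although CDX2 itself was listed at 0 in control.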
